A study of Mus musculus with 6 samples.

Results

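Transcripts of the MHC class I antigen presentation pathway were compared between fetal and adult basal mammary cells of the mouse. The pathway was represented by 10 genes, H2-K1, H2-D1, B2m, Tap1, Tap2, Tapbp, Psmb8, Psmb9, Psmb10 and Nlrc5, taken as every probe whose transcript accession belongs to one of them. This gave 12 probes of 55681 on the array, since H2-K1 and Nlrc5 each had 2. The fetal cells were sorted from glands of female C57Bl6J embryos at E18.5 as EpCAM++CD49f+ cells, and the adult basal cells from glands of C57Bl6J females of 8 to 12 wk as EpCAM+CD49f+ cells. There were 3 biological replicates of each, with 1 one-color array per replicate. The study made this comparison to look for molecular differences between 2 cell sources that differ in regenerative activity. CD31+, CD45+ and Ter119+ cells (endothelial and blood cells) were excluded from both sorts, but BP-1+ cells only from the adult sort, and the EpCAM gate was set higher for the fetal cells. Digestion was short for fetal and overnight for adult glands, so that stage, gate and digestion cannot be told apart, and whether a replicate pooled several animals was not given in the sources used here. Keratin and contractile genes of basal mammary cells were present in the adult arrays. After Holm adjustment 8 of 10 basal markers were higher there than in fetal cells (5.21% of all genes tested were), among them Krt5, Krt17 and Acta2. Among the 8, Myh11 was tested through its adult signal alone, as its fetal mean of 5.72 lay below the low-signal filter boundary of 5.95. Of 13 luminal markers, 7 were called higher in fetal cells with Holm adjustment (6.03% of all genes tested were), among them Elf5, Kit and Foxa1. Elf5, Csn2 and Csn3, all among these, were tested through their fetal signal alone, as their adult means lay below the same boundary. Csn2 and Csn3 were well above background on none of the adult arrays. With Benjamini-Hochberg adjustment Krt19 and Esr1 were called higher in adult basal cells (limma, adjusted p = 0.000411 and 8.6e-05). Esr1, with 1 of 3 fetal arrays well above background, was tested through its adult signal alone.

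MHC class I molecules display peptides from proteins made inside the cell to cytotoxic T cells. The proteasome, in which inducible catalytic subunits can replace the constitutive ones, cuts the peptides, the TAP transporter carries them into the endoplasmic reticulum, and tapasin and other chaperones load them onto a heavy chain paired with beta-2-microglobulin. Interferons raise the transcription of most of these genes, and NLRC5 is a transactivator that acts at their promoters. Most nucleated cells carry class I molecules, and epithelial cells raise them further during inflammation.

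In the RefSeq annotation 7 of the 10 genes lie on chromosome 17, where Psmb9, Tap1, Psmb8 and Tap2 follow each other with no other protein-coding gene between them. B2m lies on chromosome 2, and Nlrc5 and Psmb10 on chromosome 8. Promoter windows from RefSeq (GRCm38.p6, 250 bases before to 50 after a start site) were matched for 8 of the 10 genes, all but Tap2 and Nlrc5. The stretches before the start sites of H2-K1 (chr17:34000348-34000477, minus strand), H2-D1 (chr17:35262904-35263093, plus strand) and B2m (chr2:122147537-122147686, plus strand) are shown because they belong to the 3 genes whose products form the class I molecule itself, and the stretch between Tap1 and Psmb9 (chr17:34187331-34187555, plus strand, read towards Tap1) because these genes start on opposite strands with 225 bases between their start sites. Capitals mark matches, on either strand, to GGGNNTTCC (NF-kB), GAANNGAAA (interferon regulatory factors) and GAAANNGAA (a short form of the interferon-stimulated response element). They also mark, again on either strand, TGACG (cyclic AMP response element core) and ATTGG (Y box).
H2-K1: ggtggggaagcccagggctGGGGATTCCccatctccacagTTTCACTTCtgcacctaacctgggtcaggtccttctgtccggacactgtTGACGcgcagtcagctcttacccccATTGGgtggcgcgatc
H2-D1: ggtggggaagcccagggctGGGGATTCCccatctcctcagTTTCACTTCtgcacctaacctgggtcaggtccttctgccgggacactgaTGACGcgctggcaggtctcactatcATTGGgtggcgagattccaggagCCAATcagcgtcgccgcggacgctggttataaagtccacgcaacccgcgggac
B2m: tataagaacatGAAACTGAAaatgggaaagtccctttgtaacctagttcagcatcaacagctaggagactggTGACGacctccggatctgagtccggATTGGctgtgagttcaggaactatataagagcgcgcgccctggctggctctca
Tap1: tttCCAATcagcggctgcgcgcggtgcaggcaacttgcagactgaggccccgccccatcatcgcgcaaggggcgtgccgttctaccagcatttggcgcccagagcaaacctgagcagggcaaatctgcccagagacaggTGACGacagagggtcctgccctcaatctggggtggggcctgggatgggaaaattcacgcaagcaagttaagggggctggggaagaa
In the first 130 bases shown, H2-K1 and H2-D1 were identical at 117 positions (90.0%). GGGNNTTCC and GAANNGAAA were found in the windows of H2-K1 and H2-D1 only among the 8 genes, and in 5.82% and 7.52% of all 32851 windows. GAAANNGAA was found only in B2m of the 8 (8.56% of all windows). A window without these letters may still hold an interferon-stimulated response element in another form. No matches of different motifs overlapped in these windows. TGACG was found in 5 of the 8 genes (20.8% of all windows) and ATTGG in 6 (37.4%). For Tap1 and Psmb9 these matches are the same sites, counted for both genes, as both windows cover the stretch between them. In H2-K1, H2-D1 and B2m the first base of ATTGG lay 25 bases after the first base of TGACG. This spacing, searched for after the sequences had been seen, occurred in 31 of all windows (0.0944%). Of the other motifs searched, TTCNNNGAA, the STAT site, was found in Psmb8 alone of the 8 genes (8.3% of all windows) and AGCAAC, a core of the X box, in none of them (14.8%). These matches describe the letters of the windows and do not show that a factor was bound.

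The values below are quantile-normalized log2 signals, so that 1 unit is a 2-fold difference. Differences are taken between arrays for the same probe, except where an inducible proteasome subunit is set against its constitutive counterpart on each array. Apart from that, the brightness of different probes was used only to choose 1 probe for a gene and to describe the sum over a marker list. All 12 probes passed the filter on low signal, which keeps a probe that is above the low cluster in either population. Transcripts of 9 of the 10 genes were higher on every adult basal array than on every fetal array. Across the 15734 genes tested, such complete separation towards the adult was seen in 35.0%. After Holm adjustment at 2-fold or more, 4 of the 10 genes (H2-K1, H2-D1, Tap2 and Psmb8) were called higher in adult basal cells, and 5.21% of all genes were. After Benjamini-Hochberg adjustment 9 were, and 13.9% of all genes were. No member was called higher in fetal cells, where 6.03% of all genes were called with Holm and 15.8% with Benjamini-Hochberg adjustment. The median log2 fold change, fetal minus adult basal, was -2.23 over the 10 genes and -0.04 over all genes. In such bulk samples fewer cells carrying a transcript and less of it per cell cannot be told apart.

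**Figure D1:**
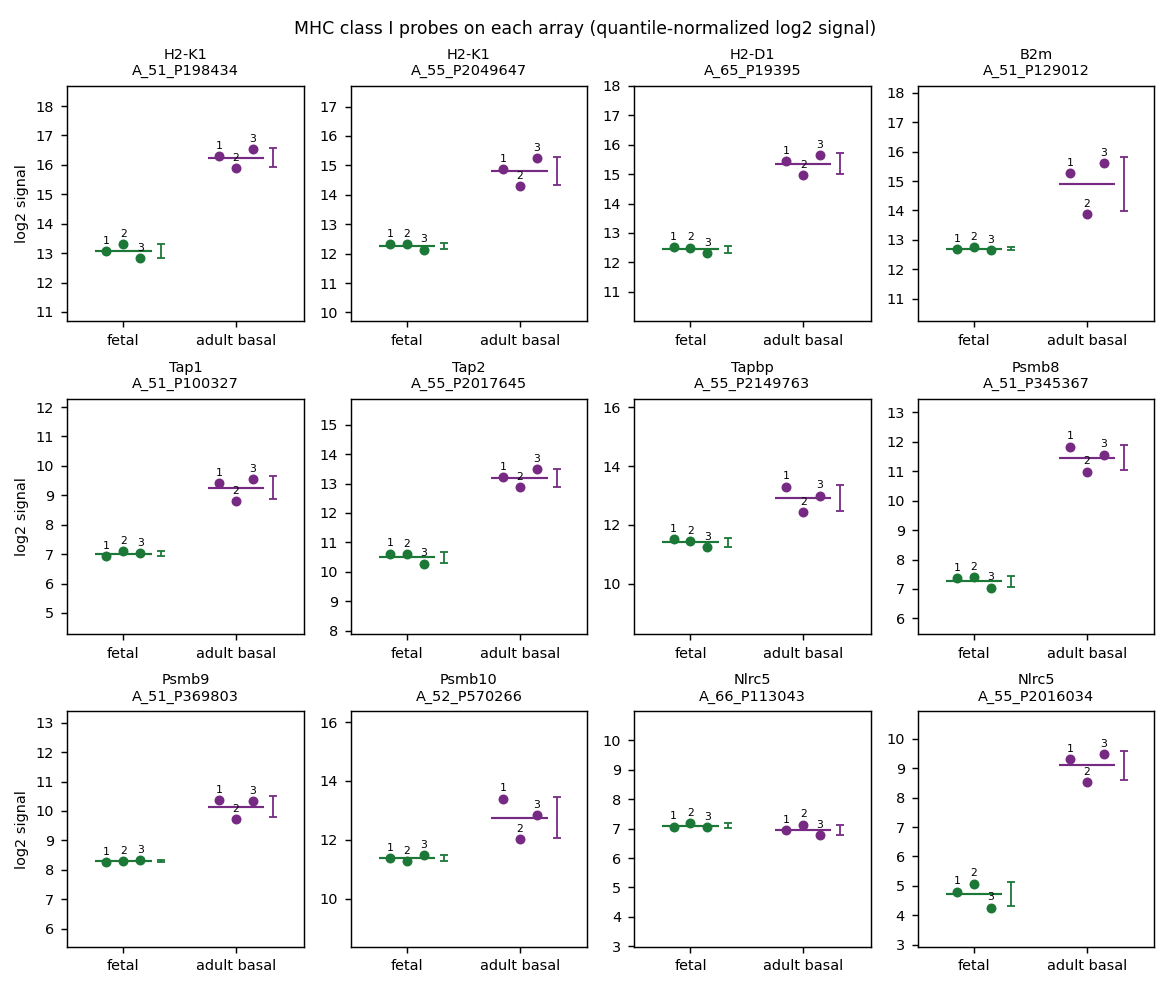
Quantile-normalized log2 signal (vertical axes, each 8 units high) of the 12 probes on the 3 fetal and 3 adult basal arrays. Points are arrays, numbered by replicate, horizontal lines are group means and bars the SD. The adult basal arrays lie above the fetal arrays for every probe except A_66_P113043 of Nlrc5, and replicate 2 is the lowest adult array for the same 11 probes.

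H2-K1 and H2-D1 encode the 2 classical heavy chains. The brighter H2-K1 probe (A_51_P198434, printed on 10 spots) gave 13.08, 13.31 and 12.82 with fetal RNA and 16.29, 15.89 and 16.53 with adult basal RNA. Before normalization the same probe read 9128, 12036 and 8159.6 intensity units in fetal cells and 76831, 46434 and 85559 in adult basal cells, so the groups were separated on the scanner scale as well. H2-K1 was 8.96-fold higher in adult basal cells (95% interval 6.52 to 12.3, log2 fold change -3.16, SE 0.20, limma with Holm-adjusted p = 0.0124). Its other probe (A_55_P2049647) read 12.31, 12.32 and 12.13 against 14.87, 14.29 and 15.24, a 5.85-fold difference that was past the threshold with Benjamini-Hochberg but not with Holm adjustment (limma, adjusted p = 5.85e-05 and 0.154). H2-D1 (A_65_P19395) read 12.53, 12.50 and 12.31 in fetal cells and 15.45, 14.97 and 15.65 in adult basal cells. Its arrays did not overlap, and the difference was 7.53-fold (interval 5.60 to 10.1, Holm-adjusted p from limma = 0.0131). Class I heavy chain genes are close in sequence, and how far these probes bind transcripts of their relatives was not tested.

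B2m, the light chain that every classical class I molecule shares, read 12.70, 12.76 and 12.65 in fetal cells (SD 0.06, n = 3) and 15.26, 13.87 and 15.61 in adult basal cells (SD 0.92, n = 3). Adult basal replicate 2 stood apart from the other adult arrays but still above all fetal arrays. The 4.63-fold difference (interval 2.38 to 8.98) did not pass Holm adjustment (limma, adjusted p = 1) and passed Benjamini-Hochberg adjustment (adjusted p = 0.00234). Without adult basal replicate 2 the log2 fold change went from -2.21 to -2.73, and the Holm-adjusted p from limma became 0.0063.

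Tap1 and Tap2 form the peptide transporter, and Tapbp encodes tapasin, which bridges the transporter and the empty heavy chain. Tap2 read 10.62, 10.59 and 10.28 in fetal and 13.22, 12.88 and 13.49 in adult basal cells. This was a 6.49-fold difference with a Holm-adjusted p from limma of 0.0189. Tap1, measured on 10 spots of an array, read 6.92, 7.11 and 7.02 against 9.42, 8.81 and 9.55. The 4.74-fold difference in Tap1 missed the Holm threshold (limma, adjusted p = 0.125) and passed with Benjamini-Hochberg adjustment (adjusted p = 4.98e-05). Tapbp read 11.52, 11.45 and 11.24 against 13.30, 12.43 and 13.00, and its 2.84-fold difference passed only with Benjamini-Hochberg adjustment (limma, adjusted p = 0.000673). None of these 3 genes had a fetal array within the adult range.

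Psmb8, Psmb9 and Psmb10 are the inducible catalytic subunits that take the places of Psmb5, Psmb6 and Psmb7 in the immunoproteasome. Psmb8 read 7.36, 7.39 and 7.04 in fetal and 11.84, 10.99 and 11.57 in adult basal cells. The resulting 18.4-fold difference (interval 12.8 to 26.5, log2 fold change -4.20, SE 0.22, Holm-adjusted p from limma = 0.00444) was the largest among the brighter probes of the 10 genes, and 209th of 15734 genes when ordered by fold towards the adult. Psmb9 read 8.26, 8.30 and 8.32 against 10.37, 9.73 and 10.34, and Psmb10 read 11.37, 11.29 and 11.48 against 13.40, 12.02 and 12.83. These 3.61-fold and 2.59-fold differences passed Benjamini-Hochberg (limma, adjusted p = 8.76e-05 and 0.00679) but not Holm adjustment (adjusted p = 0.257 and 1). For Psmb10 adult basal replicate 2 lay 0.54 above the highest fetal array, the smallest such gap among the 9 separated genes.

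The constitutive counterparts stayed under 2-fold. Psmb5 differed by 0.04 on the log2 scale, fetal minus adult basal (95% interval -0.28 to 0.36), Psmb6 by 0.44 (0.16 to 0.72) and Psmb7 by 0.59 (0.28 to 0.89). The log2 difference between the inducible subunit and its counterpart was therefore taken on each array. For Psmb8 and Psmb5 it was -8.04, -8.22 and -8.52 in fetal and -3.88, -4.35 and -3.81 in adult basal cells, so that the ratio was 19.0-fold higher in the adult. For Psmb9 and Psmb6 the ratio was 4.90-fold higher and for Psmb10 and Psmb7 3.88-fold higher, again with no overlap between the groups. Each of the 3 pairs gave p = 0.1 in a two-sided exact permutation test (0.1 after Benjamini-Hochberg adjustment over the 3), which is the smallest p that 3 against 3 arrays allow. Of the 14 constitutive subunits of the 20S core tested, none was called in either direction with either adjustment, as all stayed under 2-fold. Their median log2 fold change was 0.28, and all 14 differed towards fetal cells. For 9 of them every fetal array lay above every adult array, as it did for 5254 of all 15734 genes.

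**Figure D2:**
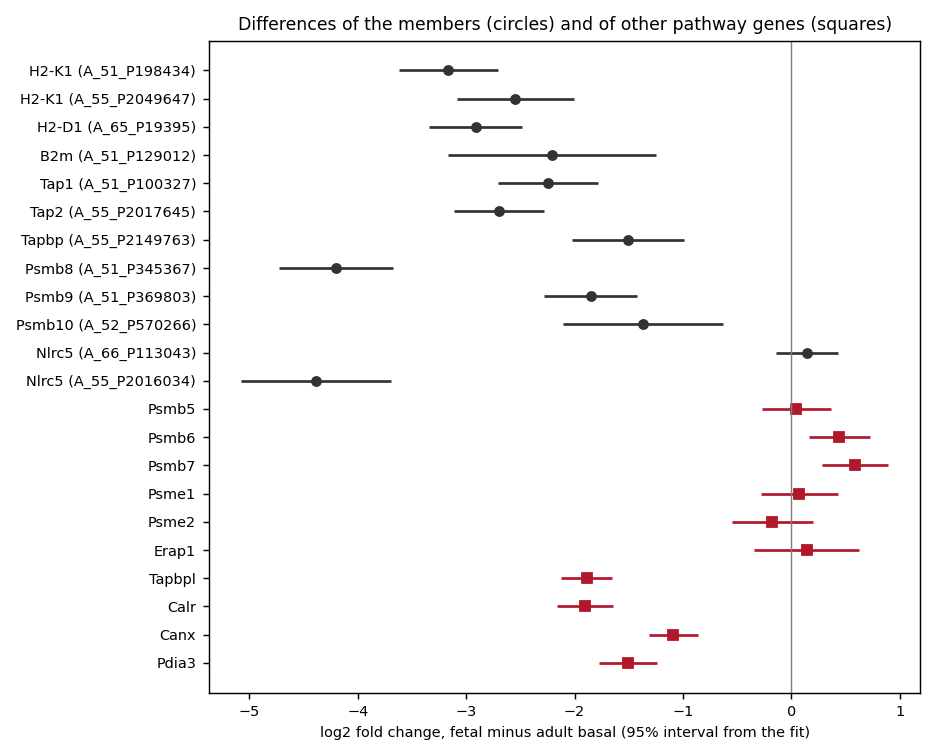
Log2 fold change, fetal minus adult basal, of the 12 member probes (circles) and of 10 other genes of the pathway (squares), with 95% intervals from the limma fit. Inducible subunits lie between -4.20 and -1.37, their counterparts Psmb5, Psmb6 and Psmb7 between 0.04 and 0.59, and the 2 Nlrc5 probes at 0.14 and -4.39.

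Nlrc5 was the exception among the 10 genes, because its 2 probes disagreed. The probe A_66_P113043 read 7.07, 7.19 and 7.05 in fetal cells and 6.96, 7.14 and 6.78 in adult basal cells. These values overlapped, and the log2 fold change of 0.14 (interval -0.14 to 0.43) was not past the threshold with either adjustment (limma, adjusted p = 1 with Holm and 0.339 with Benjamini-Hochberg). The probe A_55_P2016034 read 4.81, 5.08 and 4.26 against 9.30, 8.53 and 9.47. It was 20.9-fold higher in adult basal cells (interval 13.0 to 33.7, Holm-adjusted p from limma = 0.0211), and it was well above background on 2 of 3 fetal arrays. This Holm call was lost under 8 of 17 alternatives, over which the log2 fold change of the probe ran from -4.70 to -2.79. Its fetal mean of 4.71 lay below the filter boundary of 5.95, so that it was tested through its adult signal alone and its fold rests on dim fetal values. Its adult arrays had the same order as those of H2-K1, H2-D1, B2m, Tap1 and Tap2, with replicate 3 highest and replicate 2 lowest. Genes outside the pathway, such as Krt14 and Kit, had this order too, and the share of all genes with it was not counted. The means over all arrays were 7.03 and 6.91, so that the choice of the brighter probe for the counts rested on a difference of 0.12. Both probes carry the accession of the same transcript, and where they lie in it was not analysed here.

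The members did not differ evenly among the adult arrays. Replicate 2 was the lowest adult array for 9 of the 10 genes, the exception being the brighter Nlrc5 probe, and replicate 3 was the highest for 5. Of all arrays, adult replicate 2 also had the most outlier spots (326) and the lowest median signal before normalization (112.8). Some genes outside the pathway were low on it too, such as Krt14 (15.25, 13.39 and 15.46 on the adult arrays). Others, such as Acta2 (18.56, 18.48 and 18.39), were not. The SD over the adult arrays ranged from 0.30 (Tap2) to 0.92 (B2m) for the 9 separated genes, whereas the median SD over all probes tested was 0.18. On fetal arrays the SD of these 9 ranged from 0.03 (Psmb9) to 0.24 (H2-K1), beside a median of 0.12. Slide moved with the order of the adult arrays, since fetal replicate 1 and adult replicates 1 and 3 shared a slide and the other 3 arrays shared the other slide. Within the first slide the log2 differences of the 9 genes ran from -4.35 (Psmb8) to -1.63 (Tapbp), and within the other from -3.77 (Psmb8) to -0.64 (Psmb10). The sign was the same on both slides for all 9, and the size was smaller on the second slide, which held adult replicate 2, for all 9. With slide as a block 4 genes were called with Holm adjustment. The part of the slide in the smaller values was not tested, as it cannot be told apart from that of adult replicate 2.

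The Holm calls changed with the arrays included. Without any 1 of the fetal arrays, or without adult basal replicate 3, none of the 10 genes was called with Holm adjustment. Without adult replicate 1 only Psmb8 was, and without adult replicate 2 there were 7. With Benjamini-Hochberg adjustment at least 9 were called in each of these cases.

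The rest of the pathway was divided into lists by role, whose counts and medians are descriptions. Over all genes, 5.21% were called higher in the adult with Holm and 13.9% with Benjamini-Hochberg adjustment. Towards fetal cells these shares were 6.03% and 15.8%. The Holm counts towards the adult moved over the 18 alternatives, from 1 to 9 for the other class I heavy chains, 1 to 5 for the class I-like molecules, 1 to 6 for the loading genes, 5 to 20 for the interferon-stimulated genes and 0 to 5 for class II, the highest of each range being that with Benjamini-Hochberg adjustment. Of 25 other class I heavy chain genes, 17 had a matched probe and 14 passed the filter on low signal. Higher levels in adult basal cells were called for 3 of the 14 with Holm and 9 with Benjamini-Hochberg adjustment, and none was called higher in fetal cells (median log2 fold change -1.50). H2-M3, which presents formylated peptides, read 5.23, 5.83 and 5.07 in fetal and 9.85, 9.79 and 9.89 in adult basal cells (log2 fold change -4.46, Holm-adjusted p from limma = 0.00114). Its fetal mean of 5.38 lay below the filter boundary of 5.95, so that it, like H2-Q1 among the 9, was tested through its adult signal alone. Its adult arrays lay within 0.10 of each other. H2-K2 (-3.22) and H2-Q7 (-2.96) also passed Holm adjustment. H2-T23, which encodes Qa-1, passed with Benjamini-Hochberg adjustment alone (-1.74). H2-Q4 read 15.16, 15.23 and 14.63 against 14.95, 14.96 and 15.34 and overlapped between the groups.

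Among 8 class I-like molecules, 3 were called higher in the adult with Holm and 5 with Benjamini-Hochberg adjustment, Hfe (-1.26) and Mill2 being added (Mill1 and Mill2 were tested through their adult signal alone). The 3 past Holm adjustment were Procr, the endothelial protein C receptor (log2 fold change -4.85), Fcgrt, the heavy chain of the neonatal Fc receptor, which also pairs with beta-2-microglobulin (-2.93), and Mill1. None of the fetal arrays held Mill1 well above background, and it read 9.59, 9.57 and 9.82 in adult basal cells, at least 58.8-fold higher. This bound sets the adult mean against the dimmest probe still above background on each fetal array, or against the probe itself where that was brighter. In the opposite direction Cd1d1, which presents lipids, read 10.91, 10.93 and 10.61 in fetal and 8.90, 8.43 and 8.22 in adult basal cells, and was called higher in fetal cells with Benjamini-Hochberg adjustment (log2 fold change 2.30, limma, adjusted p = 3.81e-05). Its dimmer probe (A_55_P1971179) gave 2.11 and passed Holm adjustment as well (limma, adjusted p = 0.0182).

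All 8 genes for peptide loading and the translocon had adult arrays above fetal arrays, as had 35.0% of all genes. Of the 8, 4 were called with Holm (5.21% of all genes) and 6 with Benjamini-Hochberg adjustment (13.9%), with a median of -1.34. Those past Holm adjustment were Hspa5 (log2 fold change -2.17), Calr, calreticulin (-1.90), Tapbpl, a relative of tapasin that edits peptides (-1.89), and Pdia3, the disulfide isomerase of the loading complex (-1.51). Hspa5, Calr and Pdia3 also serve the folding of glycoproteins and secreted proteins in general.

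Trimming enzymes and proteasome activators were described next. Of 8 peptide-trimming enzymes, none was called with Holm adjustment, and with Benjamini-Hochberg adjustment Lnpep was called higher in adult basal cells (-1.30) and Thop1, which degrades peptides in the cytosol, higher in fetal cells (1.19). The call of Thop1 was lost without adult replicate 2. Erap1, the trimming peptidase of the endoplasmic reticulum, differed by 0.14 (95% interval -0.35 to 0.63). Psme1 and Psme2, which form the interferon-inducible activator of the proteasome, differed by 0.07 (-0.28 to 0.42) and -0.18 (-0.55 to 0.19). Among the 9 genes for activators and assembly factors only Psmg1, an assembly chaperone, was called, and it was higher in fetal cells (1.43, Holm-adjusted p from limma = 0.0426). This Holm call was lost under 12 of 18 alternatives, among them scaling to the 75th percentile and the omission of any 1 array.

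**Figure D3:**
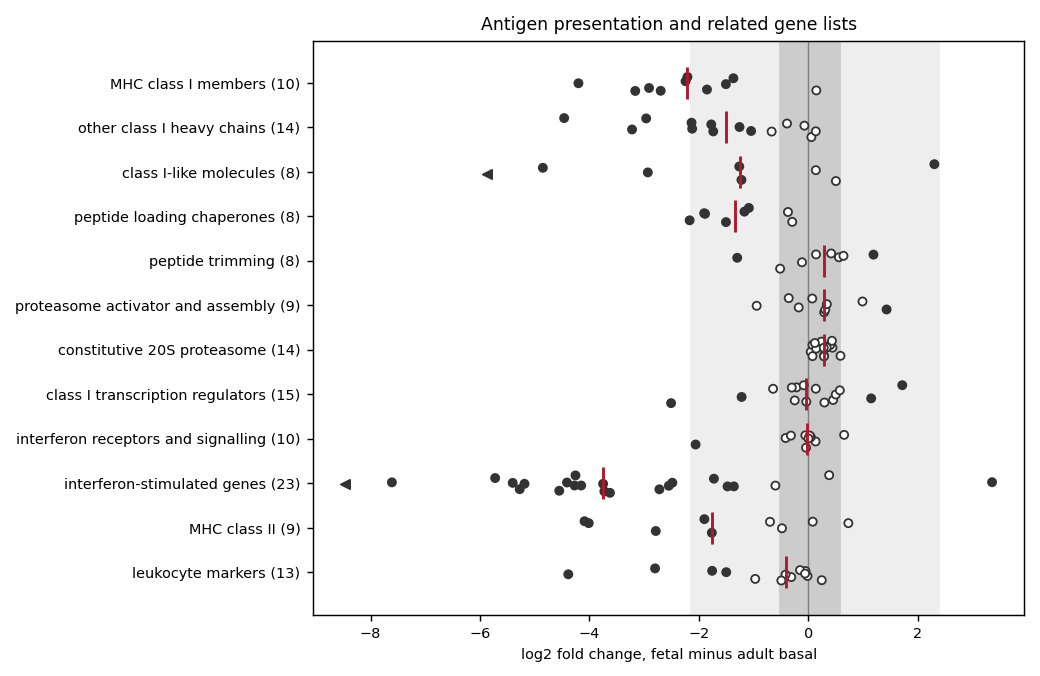
Log2 fold change, fetal minus adult basal, for each tested gene of 12 lists (number tested in brackets). Filled points were called with Benjamini-Hochberg adjustment, triangles are bounds for genes not above background in fetal cells, red lines are list medians and grey bands hold the middle 50% and 90% of all probes tested. The medians of the members (-2.23), of the interferon-stimulated genes (-3.75) and of the constitutive 20S subunits (0.28) can be read against the median of all probes (-0.03).

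The factors that act on class I promoters were represented by 15 tested genes. With Holm adjustment Stat2 alone was called (9.28, 9.86 and 9.37 in fetal and 12.15, 11.93 and 11.96 in adult basal cells, log2 fold change -2.51, limma, adjusted p = 0.0216), and under 9 of 18 alternatives, the omission of any 1 array but fetal replicate 2 among them, no gene of this list was called higher in the adult. Irf9, the partner of STAT2 in the complex that type I interferon activates, was called higher in the adult with Benjamini-Hochberg adjustment (-1.22). Irf1, an interferon-inducible activator of class I genes, was called in the other direction (13.99, 14.48 and 14.31 in fetal and 12.84, 12.24 and 12.55 in adult basal cells, log2 fold change 1.71, limma, adjusted p = 0.00017 with Benjamini-Hochberg). Nfyc, a subunit of the factor that binds the Y box, was also called higher in fetal cells (1.15). Rfx5, Rfxap and Rfxank, which hold NLRC5 on its promoters, were not called with either adjustment (0.29, -0.25 and 0.45).

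Of 10 interferon receptor and signalling genes tested, Ifngr1, the ligand-binding chain of the interferon gamma receptor, was the only one called (10.20, 10.41 and 10.28 in fetal and 12.63, 12.16 and 12.28 in adult basal cells, log2 fold change -2.06, Holm-adjusted p from limma = 0.0293). This Holm call was lost under 9 of 18 alternatives, among them the omission of any 1 array but adult replicate 2. Probes for Ifng, Ifnb1 and Ifna4 were below the low-signal filter. Among 23 interferon-stimulated genes, 11 were called higher in adult basal cells with Holm and 20 with Benjamini-Hochberg adjustment, with a median of -3.75. Of these, Ifit1, Ifit2, Ifit3 and Rsad2 had fetal means below the filter boundary and were tested through their adult signal alone. The Holm count was 5 or 6 without fetal replicate 1 or 3 and without adult replicate 1 or 3. Isg15 read 9.61, 9.98 and 9.70 against 14.71, 14.00 and 14.24 (log2 fold change -4.55), and Irf7 6.18, 6.42 and 6.49 against 10.15, 9.65 and 10.17 (-3.63). Ifit3, well above background on none of the fetal arrays, was at least 352-fold higher in the adult. Cxcl10, a chemokine, was called in the other direction (14.81, 15.16 and 14.73 in fetal and 12.03, 11.18 and 11.43 in adult basal cells, log2 fold change 3.36, Holm-adjusted p from limma = 0.0257), a Holm call that was lost under 9 of 18 alternatives, among them the omission of any 1 array but adult replicate 1.

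MHC class II genes, which present peptides from endocytosed proteins and in most tissues mark professional antigen-presenting cells, were called higher in adult basal cells for 5 of 9 tested with Benjamini-Hochberg and 1 with Holm adjustment, and 1 of the 5, H2-Aa, was tested through its adult signal alone. H2-Ab1 read 8.95, 8.93 and 8.88 in fetal and 12.67, 12.83 and 13.54 in adult basal cells (log2 fold change -4.09). Cd74, the invariant chain, read 7.49, 7.47 and 7.66 against 10.29, 9.90 and 10.80 (-2.79). Ciita, the class II transactivator related to NLRC5, overlapped between the groups (0.73, interval -0.97 to 2.43).

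Leukocytes carry both classes of MHC molecules, and CD45+ cells had been depleted in both sorts. Of 13 leukocyte markers tested, none was called with Holm and 4 with Benjamini-Hochberg adjustment, all higher in adult basal cells (Cd52, Tyrobp, Coro1a and Lyz2). Over all genes, 13.9% were called higher in the adult with the latter adjustment. Adgre1, a macrophage marker, was not called by its brighter probe (-0.42), but its other probe (A_55_P2144386) was, with Benjamini-Hochberg adjustment (limma, adjusted p = 0.00169). That probe read 7.15 ± 1.37 in adult basal cells (SD, n = 3), and its fetal mean of 2.50 lay below the dimmest probe well above background on each fetal array, so that no fold is given. With the mean of a gene's probes, dim ones included, or without adult replicate 2, 5 markers were called. Without any 1 of the fetal arrays, 3 were called, as also without the low-signal filter, with the normexp correction and the offset of 16. The fetal means of Cd52 (4.07), Tyrobp (5.40) and Lyz2 (4.85) lay below the filter boundary of 5.95, so that 3 of the 4 markers called were tested through their adult signal alone. Cd52 read 3.82, 3.33 and 5.07 in fetal and 8.19, 7.39 and 9.80 in adult basal cells (2 of 3 fetal arrays well above background), and Tyrobp 5.03, 5.17 and 6.01 against 7.82, 7.16 and 9.64. Adult replicate 3 was highest and replicate 2 lowest for Cd52, Tyrobp and Lyz2, the order also seen for H2-K1, H2-D1, B2m, Tap1 and Tap2. Basal and luminal markers such as Krt14, Mylk, Kit and Cd24a had this order as well, whereas Krt5 and Acta2 were highest on replicate 1. The share of all genes with this order was not counted. For Coro1a replicate 1 was lowest and replicate 2 highest. Tapbp, Psmb8, Psmb9 and Psmb10 were highest on replicate 1 and lowest on replicate 2. Adult replicate 3 exceeded replicate 1 by 1.62 for Cd52 and 1.83 for Tyrobp, and by 0.23 for H2-K1 and 0.34 for B2m. Ptprc, which encodes CD45, read 6.29, 7.25 and 6.72 against 6.86, 7.29 and 7.05 and overlapped (log2 fold change -0.31). Cd3e was bright, with means of 12.07 in fetal and 12.13 in adult basal cells, and differed by -0.05. Cd3g was well above background on none of the 6 arrays. Whether the bright Cd3e signal came from leukocytes was not tested. The summed level of the list, in log2 units, was 15.27, 15.02 and 14.93 on fetal and 14.92, 15.30 and 15.18 on adult basal arrays, with Itgam the brightest probe. This sum is carried by bright probes such as Itgam, Csf1r and Cd3e, and Cd52 and Tyrobp add little to it. The part of leukocyte RNA in the differences of the class I genes was not tested. Endothelial markers were called higher in adult basal cells for 5 of 7 and fibroblast markers for 3 of 8 with Benjamini-Hochberg adjustment, among the latter Dcn, decorin (-3.78), and their part was not tested either. Of the 5 endothelial markers, Cdh5, Emcn and Esam were tested through their adult signal alone, Esam with 1 of 3 fetal arrays well above background. The fibroblast count rose to 6 without adult replicate 1 and to 5 without adult replicate 2 or without fetal replicate 3, and was 2 without adult replicate 3 or without fetal replicate 1. With the normexp correction 3 endothelial markers were tested and 1 was called, and their median log2 fold change went from -1.56 to -0.11. Of 6 erythroid markers 2 passed the low-signal filter, and neither was called.

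**Figure D4:**
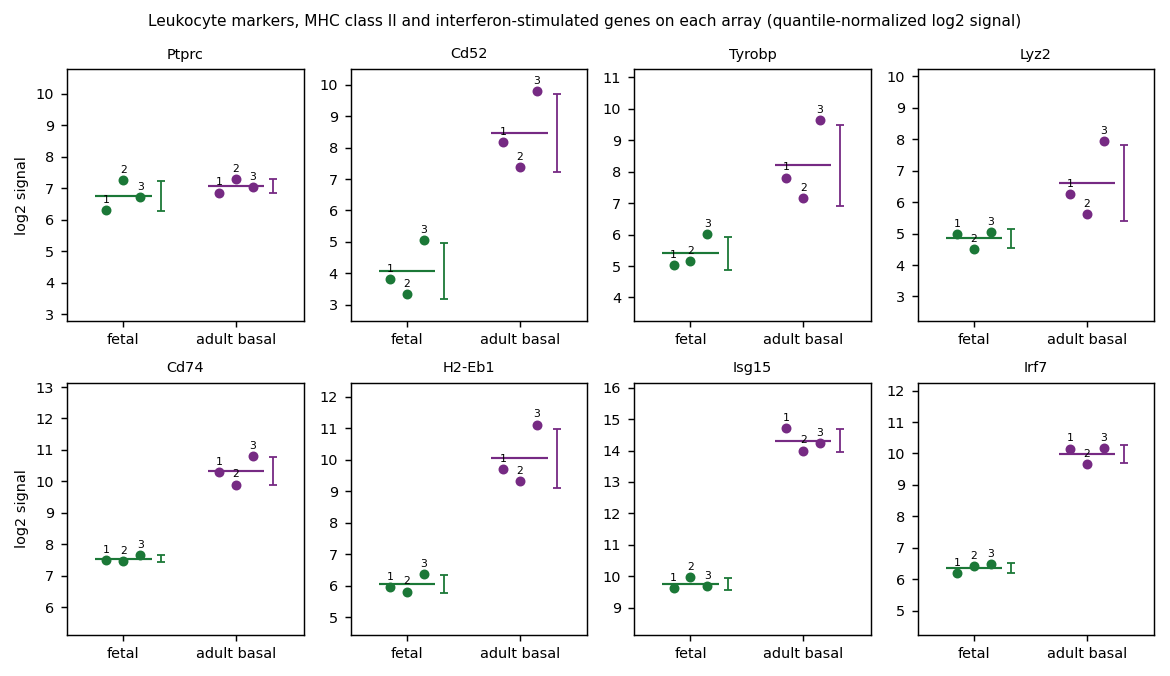
Quantile-normalized log2 signal (vertical axes, each 8 units high) of 4 leukocyte markers, 2 class II genes and 2 interferon-stimulated genes on each array, drawn as for the class I probes. Cd52, Tyrobp and Lyz2 are highest on adult replicate 3, Ptprc overlaps between the groups, and Isg15 is highest on adult replicate 1.

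Genes whose values followed the mean of the members over the 6 arrays were ranked as a description. The 5 non-member genes with the highest Pearson r were Slc7a7, Ly6a, Cpt1a, Slfn8 and Septin3, with r from 0.9989 to 0.9995 over 6 arrays that share 1 normalization. An r above 0.9 was found for 3484 of 15734 genes (22.2%). Ly6a, a surface antigen also known as Sca-1, read 8.85 ± 0.16 in fetal and 12.39 ± 0.55 in adult basal cells (SD, n = 3 each).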

How the data were processed

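RNA from 3 E18.5 fetal and 3 adult basal mammary samples was measured on Agilent SurePrint G3 Mouse GE arrays. The authors extracted spots with Feature Extraction 11.0.1.1, and the deposited processed signal is a background-subtracted intensity that is not normalized between arrays. The deposited table of log2 values, quantile normalized by the authors (their script lists further arrays, not used here), served as an alternative. Labels name a low-input Quick Amp kit and the methods a whole-transcript kit for labelling.

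Here, control and outlier spots were left out (104 to 326 outliers on an array), and quantile normalization across the 6 arrays followed averaging of the log2 processed signals of a probe's spots. The scanner files carry accessions, of which 27235 probes matched 20660 genes in the RefSeq table (GRCm38.p6). The array design names another assembly, so that no position of a probe is given. A k-means filter (3 clusters, 100 starts, seed 1) dropped probes that fell in the lowest cluster in each population, and 20448 stayed. Differences came from limma 3.58.1 (lmFit, eBayes, no covariates) in R 4.3.3. A call needed an adjusted p of at most 0.05 (Holm, or Benjamini-Hochberg) over all probes tested and a fold of at least 2. The brightest probe stood for a gene in counts, and all probes of the 10 genes are named. Other genes named are list members and the 5 genes most like the 10. The fit was tested on simulated data. P-values measure the spread between arrays, whose number limits the precision. Arrays had 76.4% to 83.3% of their probes well above background and no saturated spot. Promoter windows were searched in Python 3.11.15 with pandas 2.3.3, and plots drawn with matplotlib 3.10.9 and numpy 2.4.6. The members and lists were chosen with earlier results of these data known. Alternatives tried were scaling to the 75th percentile, use of the deposited log2 values, a normexp correction (offset 50) on the median spot intensity, no filter, a filter on background, all probes, Benjamini-Hochberg adjustment, a trended and robust eBayes, an offset of 16, omission of each array, a block for replicate number or for slide, and averaging over the probes of a gene. Replicate numbers did not pair the samples. Some genes of the lists are not reported here.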

Additional observations from a re-analysis of the deposited data

How the results depend on the processing

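The median log2 fold change of the 10 genes stayed between -2.60 and -1.98 under all 18 alternatives, and with Benjamini-Hochberg adjustment 9 or 10 genes were called higher in adult basal cells under each of the 17 others, a combination added after the Holm counts had been seen. Holm counts moved more. From 4 genes and 2270 probes they went to 1 gene and 1182 probes without the low-signal filter, where more probes were tested, to 9 genes and 6133 probes with Benjamini-Hochberg adjustment, and to 1 gene and 1302 probes with replicate number as a block. Leaving out 1 array gave 0 to 7 genes and 948 to 1949 probes. The trended, robust fit and the offset of 16 gave 6 genes each, and the cause was not tested. Correlations of the deviations of same-numbered samples were -0.03, 0.09 and 0.05, so the numbers did not pair them. The differences between inducible and constitutive subunits kept their sign under all 12 alternatives run, from -4.42 to -3.75 for Psmb8, -2.45 to -2.10 for Psmb9 and -2.24 to -1.73 for Psmb10, with the replicate block included. Nlrc5 reversed from 0.14 to -2.79 with the normexp correction and to -3.73 with the offset, because its brighter probe was then below the filter and the other probe stood for the gene, and to -2.12 with the mean of its probes. Of 214 values for single probes of the 10 genes, 163 kept direction and call, 33 lost and 15 gained the call, and 3 reversed. Of 576 counts for the other lists, 472 stayed within 1.5 times the main count. Signal over background limits the fetal values of Nlrc5 (A_55_P2016034), Mill1, Ifit3 and Cd52, among others.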
